A study of Mus musculus with 51 samples.

Results

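The 10 genes described here encode subunits of the proteasome and fall into 2 sets of 5. Psmb8, Psmb9, Psmb10, Psme1 and Psme2 belong to the immunoproteasome, and Psmb5, Psmb6, Psmb7, Psme3 and Psme4 to the constitutive proteasome. They were taken by gene symbol from the 24421 genes counted in each library, and were chosen with earlier results of these data known. All 10 passed the filter on low counts in each of the 3 preparations.

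The proteasome is the barrel-shaped protease that degrades proteins tagged with ubiquitin. In the constitutive particle Psmb5, Psmb6 and Psmb7 carry the catalytic sites, and interferons induce Psmb8 (LMP7), Psmb9 (LMP2) and Psmb10 (MECL1), which take their places in newly assembled particles and change the peptides released for display on MHC class I molecules. Psme1 and Psme2 form the interferon-inducible PA28 cap, whereas Psme3 (PA28 gamma) and Psme4 (PA200) form caps found mainly in the nucleus. In brain, microglia are known to express the inducible subunits more than neurons do.

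RNA was measured in 17 male C57BL/6J mice, 8 controls and 9 exposed to chronic intermittent ethanol vapor (CIE), a model of alcohol dependence. From the prefrontal cortex of each mouse 3 libraries were made, 51 in all: astrocytes captured with ACSA2 beads, microglia captured with Cd11b beads from the cells that ACSA2 left behind, and total homogenate, the unsorted cell suspension. CIE mice were bought as adults (8 weeks). They were injected with ethanol (1.6 g/kg) and pyrazole (1 mmol/kg), an inhibitor of alcohol dehydrogenase. They stayed in ethanol vapor for 16 h a day over 4 weekly cycles, with undisturbed weeks between the cycles. Control mice had the same age and strain, received saline with the same pyrazole and breathed air in like chambers, so pyrazole was common to both groups. The beads enrich cells and do not purify them, and a change in bulk RNA cannot tell fewer or more cells of a type from less or more RNA per cell.

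Astrocyte libraries held 2082289 to 10041788 assigned counts, microglial libraries 571878 to 6026453 and homogenate libraries 5042926 to 15594154. The summed level of 12 microglial marker genes in control mice had a median of 27797 CPM (counts scaled to a library of 1e6 counts) in the microglial preparation, 4297 in astrocytes and 837 in total homogenate, and that of 10 astrocyte marker genes 356, 17190 and 6865 CPM. None of these markers was at 0 in a preparation. The summed 5 oligodendrocyte markers had a control median of 17244 CPM in the astrocyte preparation and 1923 CPM in total homogenate. The labelled enrichment was thus present in both glial preparations, and the astrocyte preparation also held RNA of microglia and oligodendrocytes. From homogenate to the astrocyte preparation, the microglial and oligodendrocyte markers rose more in proportion than the astrocyte markers did.

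Psmb9 and Psmb8 lie beside each other on chromosome 17 of GRCm38 (mm10), with the peptide transporter gene Tap1 between them. Psmb9 occupies chr17:34181987-34187764 on the minus strand and shares 212 bases with Tap1 (chr17:34187553-34197225, plus strand), and Psmb8 (chr17:34197721-34201454, plus strand) begins 496 bases after the end of Tap1. The strand setting of the counting was not stated, so reads from the stretch shared by Psmb9 and Tap1 may be uncertain, as may those of Psmb8, Psmb10, Psme1, Psmb7 and Psme4, each of which overlaps another annotated gene. Psme1 (chr14:55578123-55581529, plus strand) and Psme2 (chr14:55587441-55591113, minus strand) are neighbours on chromosome 14, and Psme2 has a close relative, Psme2b on chromosome 11, with which reads could be shared. Psmb10 lies at chr8:105935735-105938444 and Psmb5 at chr14:54614119-54618022, both on the minus strand. Psmb6 lies at chr11:70525367-70527858 (plus strand), Psmb7 at chr2:38588036-38644087 (minus strand), Psme3 at chr11:101316213-101323537 (plus strand) and Psme4 at chr11:30771726-30880361 (plus strand).

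RefSeq start-site windows (GRCm38.p6, 250 bases before to 50 after the start) were found for 9 of the 10 genes and searched on both strands for 3 motifs. These were the interferon-stimulated response element (ISRE, GAAA and GAAA with any 2 bases between them), the gamma-activated site (GAS, TTCNNNGAA) and the antioxidant response element (ARE, TGACNNNGC), which NRF factors use to set the level of constitutive subunits. A GAS lay in Psmb8, an ISRE in Psme1 on the other strand, and an ARE in each of Psmb5, Psmb6 and Psme4, that of Psme4 on the other strand. No match overlapped another, and Psmb9, Psmb10, Psme2 and Psme3 held none of the 3 sets of letters in their windows. Of all 32851 windows of the same length, 8.3% held the GAS, 3.44% the ISRE and 12.4% the ARE, so a match alone is common. The 5 matches are shown 5′ to 3′ on the strand of the gene, with the motif in capitals, because they mark where the inducible and constitutive genes carried different letters. The GAS of Psmb8 spans bases -97 to -89 from the RefSeq start (chr17:34198088-34198116 with its flanks), and the ISRE of Psme1 spans bases 10 to 19 after its RefSeq start (chr14:55578493-55578522, plus strand). By the gene positions given above, the matches of Psmb8, Psme1 and Psme4 lie inside the gene, as those positions begin further upstream than the matches.
Psmb8 GAS: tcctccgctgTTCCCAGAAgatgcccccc
Psme1 ISRE: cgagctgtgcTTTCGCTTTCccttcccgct
Psmb5 ARE (chr14:54618024-54618052, minus strand): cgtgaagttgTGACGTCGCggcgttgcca
Psmb6 ARE (chr11:70525338-70525366, plus strand): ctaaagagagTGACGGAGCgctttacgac
Psme4 ARE (chr11:30771758-30771786, plus strand): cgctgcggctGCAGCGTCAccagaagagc
The windows of Psmb9 and Tap1 share 275 bases, since their RefSeq starts face away from each other across 225 bases.

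Whether CIE changed the inducible subunits in astrocytes was asked first. Psmb9, the inducible counterpart of Psmb6, rose in the astrocyte preparation of CIE mice. Its level was 2.98 CPM at the lowest, 4.53 at the median and 7.66 at the highest in the 8 controls, and 4.78, 10.8 and 19.6 CPM in the 9 CIE mice. All 9 CIE mice lay above the control median and 8 of them above the highest control, while mouse 25 alone stayed within the control range. The log2 fold change was 1.12 (SE 0.249), a 2.18-fold higher level, with an adjusted p of 0.0142 by the edgeR quasi-likelihood test. These levels rest on 9 to 129 counts per library.

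Psmb8, the inducible counterpart of Psmb5, showed a smaller difference in astrocytes that did not pass the test. Control astrocytes had 7.98, 14.0 and 23.6 CPM of Psmb8 at the lowest, median and highest, and CIE astrocytes 14.3, 22.9 and 39.1 CPM. All 9 CIE mice exceeded the control median but only 3 the highest control. The log2 fold change was 0.65 (SE 0.213, edgeR adjusted p = 0.0782). Of the 5 immunoproteasome genes 1 was called higher in astrocytes, against 2.91% of all 12878 genes tested (5.13% in either direction), and 2 of the 5 had an unadjusted p under 0.05, against 21% of all genes.

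The call for Psmb9 in astrocytes held in each of the 17 fits that left out 1 mouse, with log2 fold changes from 0.98 to 1.24. It was lost when CIE mice 23, 26 and 41 were left out together (log2 fold change 0.93, edgeR adjusted p = 0.0937). That fit called 115 genes higher and 71 lower, against 375 and 286 with all mice. The 3 mice were picked after the data were seen, for the highest neutrophil marker sums in homogenate (23 and 26) or microglia (41). Mouse 23 also had the highest Psmb9 in astrocytes. The call was lost too when the level of neutrophil, border macrophage and monocyte markers was a covariate (0.81, SE 0.346, edgeR adjusted p = 0.434), a fit in which 1 of 12878 genes was called at all. The summed level of 10 border macrophage and monocyte markers in astrocytes was 54.4 to 222 CPM in controls and 85.1 to 330 CPM in CIE mice, with 7 of 9 CIE mice above the control median and 2 of the 8 tested markers called higher. Summed neutrophil markers in astrocytes had medians of 130 CPM in control and 127 CPM in CIE mice. They ranged from 54.0 to 206 CPM in controls and from 84.3 to 301 CPM in CIE mice. Only 1 of these 11 markers was high enough to be tested, and it was not called (log2 fold change -0.10). The summed astrocyte markers had medians of 17190 CPM in control and 14121 CPM in CIE mice, with 1 of 9 CIE mice above the control median, and of the 10 markers 1 was called higher and 1 lower. The part of these shifts in the Psmb9 result was not tested. Microglial markers ranged from 1774 to 7137 CPM in control and from 3032 to 6904 CPM in CIE astrocytes, and with their level as a covariate both Psmb9 (edgeR adjusted p = 0.00389) and Psmb8 (log2 fold change 0.65, adjusted p = 0.0234) were called higher.

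The astrocyte levels of Psmb8 and Psmb9 were set beside the microglial markers, each as a share of its level in microglia. In control mice, on a scaling across all libraries, the summed microglial markers in astrocytes stood at 12.8% of their level in microglia, while Psmb8 stood at 19.9% and Psmb9 at 17.5%. In CIE mice the shares were 17.7% for the markers, 26.1% for Psmb8 and 28.1% for Psmb9. The share of the markers was higher mainly through their mean in microglia, 31985 CPM in control and 24652 CPM in CIE mice, as their mean in astrocytes was 4098 and 4370 CPM. How much of the astrocyte values came from microglial RNA was not tested.

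In the microglial preparation itself no immunoproteasome gene passed the test. Psmb9 had 15.0, 24.1 and 36.5 CPM at the lowest, median and highest in controls and 16.7, 35 and 53.7 CPM in CIE mice (log2 fold change 0.50, SE 0.206, edgeR adjusted p = 0.202). Psmb8 had 51.8, 59.8 and 90.8 CPM in controls and 44.3, 81.9 and 112 CPM in CIE mice (0.33, SE 0.158, edgeR adjusted p = 0.292). For each gene 8 of 9 CIE mice lay above the control median and 3 above the highest control, and mouse 25 lay below the control median.

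Psme1, the alpha subunit of the PA28 cap, had a difference in microglia as large as that of Psmb8. Its control values were 61.4, 77.0 and 128 CPM and its CIE values 68.4, 104 and 156 CPM (log2 fold change 0.34, SE 0.157, edgeR adjusted p = 0.272). The groups overlapped, and 1 CIE mouse exceeded the highest control. In microglia 0 of 5 immunoproteasome genes were called higher, against 2.31% of 10761 genes (3.47% in either direction), while 3 of the 5 (Psmb8, Psmb9 and Psme1) had an unadjusted p under 0.05, against 16.9% of all genes. DESeq2 called none of them either.

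The makeup of the microglial libraries differed between the groups. The summed microglial markers were at 25993 to 38142 CPM in controls and 18391 to 27503 CPM in CIE mice, with 0 of 9 CIE mice above the control median and 2 of 12 markers called lower. Of 10 neutrophil markers tested 9 were called higher, and their sum reached 6774 CPM in CIE mouse 41 against 1121 CPM in the highest control. Oligodendrocyte markers in microglia had medians of 3055 CPM in control and 4881 CPM in CIE mice, with 7 of 9 CIE mice above the control median and 1 of 5 markers called higher. Without CIE mice 23, 26 and 41 the microglial log2 fold change was 0.19 for Psmb8, 0.18 for Psme1 and 0.37 for Psmb9. These genes were also not called with the level of neutrophil, border macrophage and monocyte markers as a covariate. That fit called 43 genes higher and 4 lower. The part of these cells in the microglial values of Psmb8, Psmb9 and Psme1 was not tested.

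In total homogenate Psmb8 and Psmb9 had the largest log2 fold changes of the 10 genes, and neither passed the test. Psmb8 was tightly grouped in controls at 4.05, 4.48 and 5.37 CPM and spread widely in CIE mice at 4.39, 8.27 and 20.2 CPM. The log2 fold change was 1.07 (SE 0.272, edgeR adjusted p = 0.118). CIE mice thus split in homogenate, with 6 of 9 above the highest control and 3 (mice 25, 39 and 41) inside the control range.

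Psmb9 in homogenate had 0.991, 2.09 and 2.93 CPM in controls and 1.36, 4.6 and 9.20 CPM in CIE mice, from 8 to 69 counts per library (log2 fold change 1.09, SE 0.323, edgeR adjusted p = 0.217). Here too 6 of 9 CIE mice exceeded the highest control. In homogenate 0 of 5 were called higher, against 0.193% of 13982 genes (0.25% in either direction), and 3 of the 5 (Psmb8, Psmb9 and Psme2) had an unadjusted p under 0.05, against 9.2% of all genes. DESeq2 called Psmb8 (adjusted p = 0.0141), as did edgeR without mouse 41 (log2 fold change 1.17, adjusted p = 0.0476), and both Psmb8 and Psmb9 were called with the microglial marker level as a covariate (1.15 and 1.27, both with an edgeR adjusted p of 0.0229). Neither was called with the level of neutrophil, border macrophage and monocyte markers as a covariate (0.76 and 0.86, edgeR adjusted p of 0.123 and 0.157).

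Neutrophil RNA was raised in single homogenate libraries of CIE mice. The summed neutrophil markers reached 837 CPM in mouse 26, 281 in mouse 23 and 133 in mouse 25, against 42.6 CPM in the highest control. Psmb8 was high in mouse 26 (12.6 CPM) and mouse 23 (20.2 CPM), low in mouse 25 (4.39 CPM), and high in mice 08 (13.3 CPM) and 40 (11 CPM), whose neutrophil sums were 43.0 and 18.4 CPM. The summed border macrophage and monocyte markers exceeded the highest control (47.7 CPM) in mice 06 (57.7 CPM), 08 (61.2), 23 (172), 25 (80.7) and 26 (140), while mouse 40 had 22.9 CPM. None of the 5 of these markers tested was called by edgeR, 3 had an unadjusted p under 0.05, and their median log2 fold change was 1.26. Lymphocyte markers, too low to be tested, summed to 6.10 CPM in mouse 08, 8.15 in mouse 26 and 12 in mouse 23, against 2.42 CPM in the highest control. Without mice 23, 26 and 41 the log2 fold change of Psmb8 was 0.86 and that of Psmb9 0.87. By edgeR no neutrophil marker was called in homogenate (0 of 7 tested), although 6 of the 7 had an unadjusted p under 0.05 with a median log2 fold change of 3.24 over the 7. The part of these cells in the homogenate values was not tested.

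The extremes among the CIE mice were shared by the 3 preparations. Mouse 23 was the highest and mouse 25 the lowest for both Psmb8 and Psmb9 in astrocytes, microglia and total homogenate. Mouse 40 was next to the highest in astrocytes and microglia, and mouse 08 in homogenate, although mouse 08 was the third lowest for Psmb8 in both glial preparations. Mouse 41 was the fifth for Psmb8 in both glial preparations and next to the lowest in homogenate. The microglial library of mouse 23 was also the shallowest of all, at 571878 counts, and the 3 libraries of a mouse come from 1 tissue sample.

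**Figure D1:**
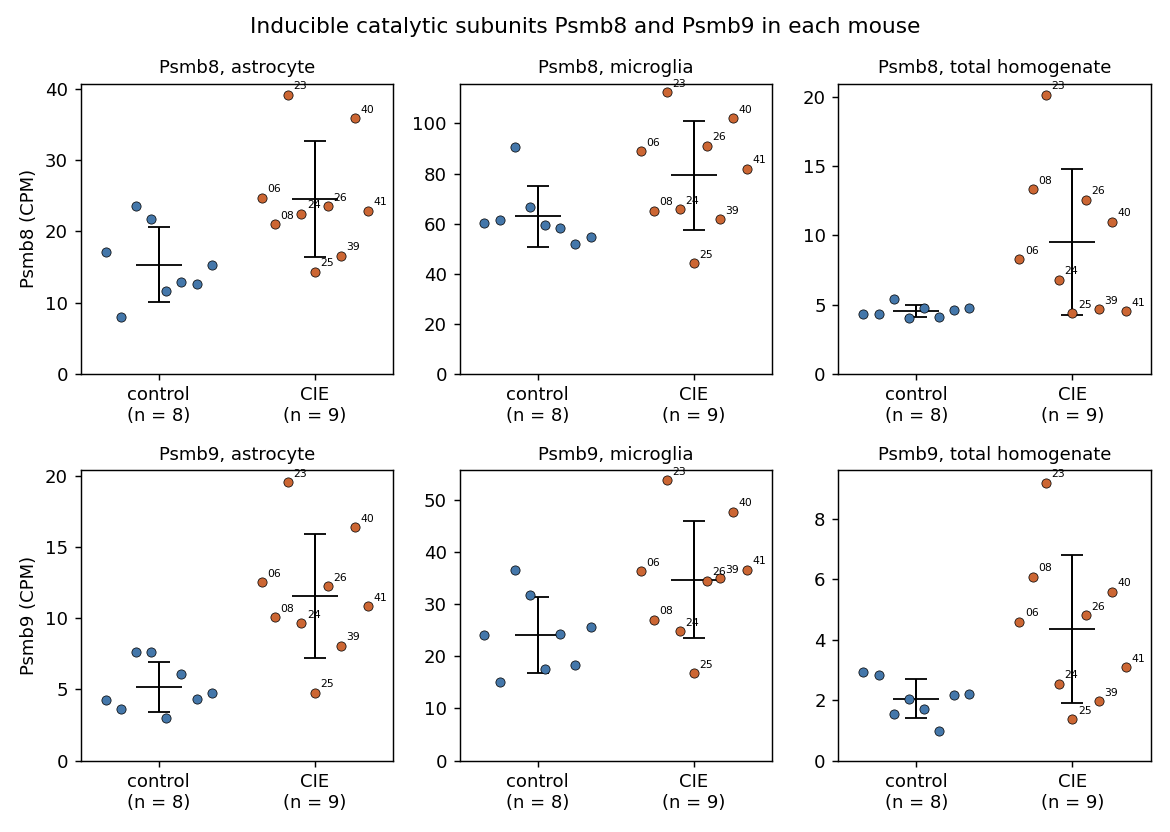
Level of Psmb8 (upper row) and Psmb9 (lower row) in CPM for each mouse (points) in 8 control and 9 CIE mice by preparation, with the mean and SD as black bars and the mouse number beside each CIE point. Mouse 23 is highest and mouse 25 lowest among CIE mice in all panels, and in astrocytes 8 of 9 CIE mice lie above the highest control for Psmb9.

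The libraries also fall into 3 ranges of mouse numbers (03 to 08, 19 to 26 and 35 to 41), and the labels do not say what the numbers stand for. Psmb9 in astrocytes was higher in CIE than in control mice in each range, by 1.40, 0.82 and 1.1 on the log2(CPM + 0.5) scale. In microglia the difference of Psmb9 was 0.70, 0.12 and 0.80 and that of Psmb8 0.32, 0.06 and 0.54, smallest in the range that holds mouse 25 and control mouse 19. In homogenate Psmb8 differed by 1.19, 0.94 and 0.43 and Psmb9 by 0.78, 0.88 and 0.78. Each range holds only 2 to 4 mice a group, so no test was made within it.

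The third inducible catalytic subunit, Psmb10, had smaller differences than Psmb8 and Psmb9. Its medians in control and CIE mice were 19.5 and 25.1 CPM in astrocytes, 48.1 and 51.6 CPM in microglia and 27.8 and 29.1 CPM in total homogenate. The log2 fold changes were 0.14 (SE 0.166), 0.12 (SE 0.155) and 0.09 (SE 0.127), with edgeR adjusted p of 0.684, 0.813 and 0.916. Leaving out 1 mouse gave 0.042 to 0.25, 0.040 to 0.21 and 0.022 to 0.16, each time lowest without CIE mouse 40. In astrocytes 8 of 9 CIE mice lay above the control median, but 1 alone above the highest control.

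The PA28 subunits had small differences of the same sign. For Psme1 the log2 fold change was 0.15 (SE 0.122, edgeR adjusted p = 0.51) in astrocytes and 0.09 (SE 0.122, adjusted p = 0.913) in homogenate, beside the 0.34 of microglia. For Psme2 it was 0.16 (SE 0.116, edgeR adjusted p = 0.469) in astrocytes, 0.18 (SE 0.14, adjusted p = 0.604) in microglia and 0.24 (SE 0.11, adjusted p = 0.51) in homogenate. Psme2 in homogenate ranged from 14.6 to 19.2 CPM in controls and from 13.3 to 26.8 CPM in CIE mice, and 4 of 9 CIE mice exceeded the highest control. The relative Psme2b, low at medians of 5.73 CPM in astrocytes and 21.1 CPM in microglia of controls, had log2 fold changes of 0.12, 0.03 and 0.33 and was not called.

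No constitutive subunit was called in any preparation, and none had an unadjusted p under 0.05 in the main edgeR fits or an adjusted p under 0.05 by DESeq2. With the neutrophil, border macrophage and monocyte covariate, unadjusted edgeR p in homogenate was 0.016 for Psmb5, 0.0198 for Psmb7 and 0.035 for Psme3. Their log2 fold changes in that fit were 0.21, 0.23 and 0.12, with edgeR adjusted p from 0.177 to 0.23. Psmb5, the constitutive partner of Psmb8, had medians of 41.6 CPM in control and 43.6 CPM in CIE astrocytes, 28.2 and 25.7 CPM in microglia and 47.3 and 45.2 CPM in homogenate. Psmb6, the partner of Psmb9, had 64.6 and 65.2 CPM in astrocytes, 46.2 and 43.4 CPM in microglia and 52.3 and 48.1 CPM in homogenate. Psmb7, the partner of Psmb10, had 68.9 and 80.9 CPM in astrocytes, 47.4 and 46.9 CPM in microglia and 65.4 and 63.3 CPM in homogenate. Log2 fold changes of these 3 genes lay between -0.10 and 0.14 in the 3 preparations, and for each of them the groups overlapped.

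Psme3 and Psme4, the caps not induced by interferon, were not called in any preparation either. Psme3 had log2 fold changes of 0.01 (SE 0.0694) in astrocytes, 0.14 (SE 0.0935) in microglia and 0.02 (SE 0.0925) in homogenate. Psme4 had -0.003 (SE 0.092) in astrocytes, -0.04 (SE 0.137) in microglia and 0.26 (SE 0.166) in homogenate, where its CIE values spread from 50.6 to 121 CPM and its control values from 51.5 to 89.7 CPM. The edgeR adjusted p of Psme4 in homogenate was 0.699.

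**Figure D2:**
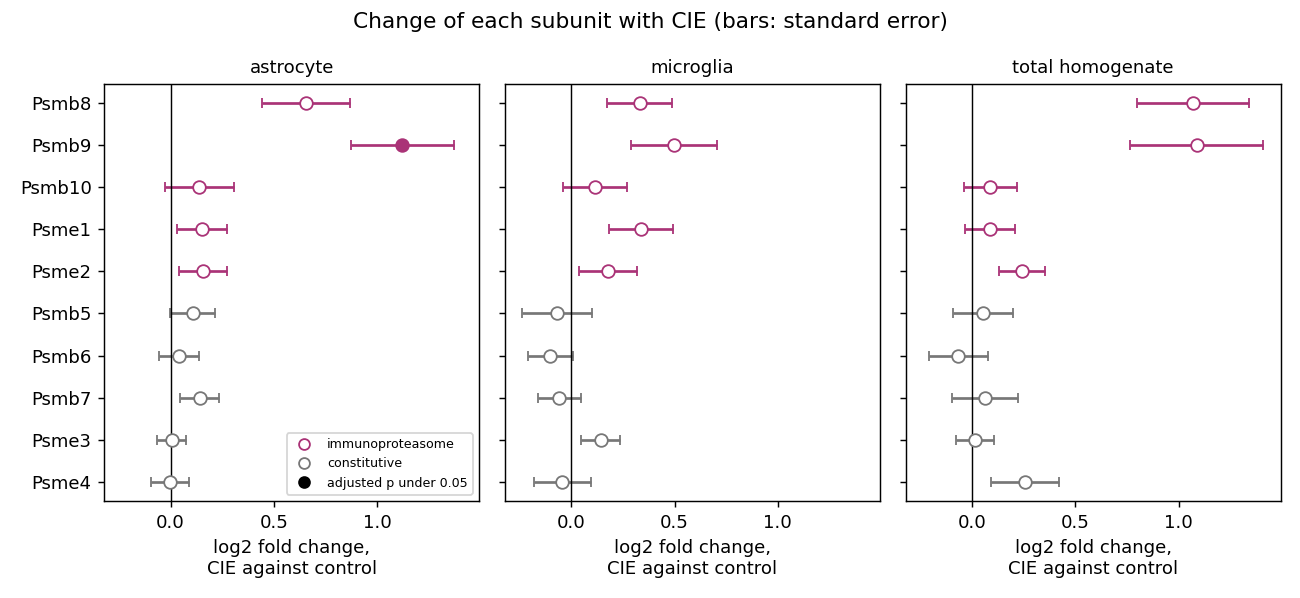
Log2 fold change of CIE against control (x axis) with its standard error for the 5 immunoproteasome (purple) and 5 constitutive (grey) subunits in each preparation, from 8 control and 9 CIE mice. The filled point, Psmb9 in astrocytes at 1.12, is the 1 member with an adjusted p under 0.05.

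All 5 immunoproteasome genes had a positive log2 fold change in each preparation, and of the constitutive genes 4 of 5 did so in astrocytes and in homogenate but 1 of 5 in microglia. The median log2 fold change of the immunoproteasome set was 0.16, 0.33 and 0.24 in astrocytes, microglia and homogenate, that of the constitutive set 0.04, -0.06 and 0.05, and that of all genes tested 0.003, -0.01 and 0.01. In each preparation the CIE and control values of every member overlapped. The share of all genes with fully separate groups was not counted. For astrocyte libraries the positive sign was shared by other proteasome subunits. All 11 other subunits of the 20S core and all 19 of the 19S regulator were positive there, with medians of 0.17 and 0.12. Among all 12878 genes 6531 were positive. Of the same 11 and 19 subunits, microglial libraries had 9 and 7 positive, and homogenate libraries 10 and 14.

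The balance of the sets was measured in each library as the mean log2(CPM + 0.5) of the 5 immunoproteasome minus that of the 5 constitutive genes, without correction for length. In astrocytes this log2 ratio was -1.78 ± 0.313 (SD, n = 8) in controls and -1.41 ± 0.355 (SD, n = 9) in CIE mice. In microglia it was -0.07 ± 0.226 in controls and 0.24 ± 0.319 in CIE mice. In homogenate it was -2.57 ± 0.0803 in controls and -2.20 ± 0.5 in CIE mice. The difference was 0.37, 0.31 and 0.37, about the size of the SD among CIE mice in astrocytes and microglia. Of the 9 CIE mice 8 lay above the control median in both glial preparations and 5 in homogenate. Those 5 (mice 06, 08, 23, 26 and 40) also lay above the highest control of homogenate, while the 4 others were at -2.56 or below.

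**Figure D3:**
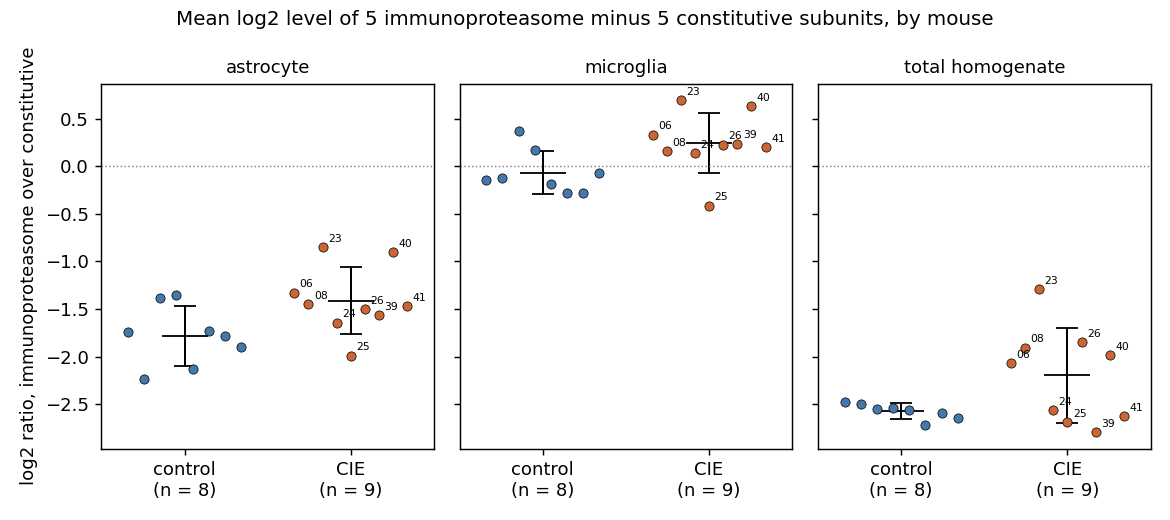
Log2 ratio of immunoproteasome to constitutive subunits (mean log2(CPM + 0.5) of 5 genes minus that of 5 genes) for each mouse in 8 control and 9 CIE mice by preparation, with the mean and SD as black bars. In homogenate the controls lie between -2.72 and -2.47, with 5 CIE mice above them, and in microglia the controls centre on -0.07.

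The difference was larger for the catalytic pairs of Psmb8 and Psmb9 than for the other pairs. The log2 ratio of Psmb9 to Psmb6 differed by 1.01 in astrocytes (-3.53 in controls, -2.52 in CIE mice, 8 of 9 CIE mice above the highest control), by 0.57 in microglia (6 of 9) and by 0.91 in homogenate (5 of 9). The ratio of Psmb8 to Psmb5 differed by 0.54, 0.39 and 0.82. The ratio of Psmb10 to Psmb7 differed by 0.0003, 0.15 and 0.04, and that of the PA28 genes Psme1 and Psme2 to the caps Psme3 and Psme4 by 0.15, 0.23 and 0.05. In microglia the PA28 ratio of no CIE mouse exceeded the highest control.

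Between preparations of control mice the 2 sets were arranged very differently. Microglia had more of each immunoproteasome subunit than total homogenate, by log2 differences of 3.92 (SE 0.251) for Psmb8, 3.68 (SE 0.294) for Psmb9, 1.71 (SE 0.128) for Psme2, 1.70 (SE 0.147) for Psme1 and 0.99 (SE 0.162) for Psmb10 (edgeR, all adjusted p at or under 2.19e-07). Of the constitutive genes Psmb5 (-0.69, SE 0.157) and Psme3 (-0.63, SE 0.0915) were lower in microglia than in homogenate, Psme4 was higher (0.58, SE 0.142), and Psmb6 (-0.01) and Psmb7 (-0.24) were not called. Psmb7 was called lower without control mouse 05 (-0.33) or CIE mouse 06 (-0.32). In total 8 of 10 genes were called and 6 were higher, against 83.6% of 14379 genes called and 37.5% higher. The share called was near that of all genes, whose median log2 difference was -0.17, and Psmb8 and Psmb9 stood furthest from it.

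Microglia also had more of all 5 immunoproteasome subunits than astrocytes. The log2 differences ran from 1.33 (SE 0.129) for Psme2 to 2.48 (SE 0.284) for Psmb9, with 2.30 (SE 0.235) for Psmb8, and the largest edgeR adjusted p was 1.15e-10, for Psmb10 (1.42). Psme3 (0.51) and Psme4 (0.56) were higher too, and Psmb5, Psmb6 and Psmb7 were not called at -0.27, -0.12 and -0.20. Without CIE mouse 06 Psmb5 (-0.40) and Psmb7 (-0.32) were called lower, and without the 4 mice numbered under 10 Psme4 lost its call (0.32). Called were 7 of 10, all higher, against 69.8% of all genes called and 35.7% higher.

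Astrocytes stood above homogenate for Psmb8 (log2 difference 1.62, SE 0.249), Psmb9 (1.20, SE 0.309) and Psme2 (0.38, SE 0.125) and below it for Psme3 (-1.13, SE 0.0898), Psmb10 (-0.43, SE 0.16) and Psmb5 (-0.42, SE 0.145), by edgeR with adjusted p from 1.82e-16 to 0.014. Psme1, Psmb6, Psmb7 and Psme4 were not called. Psmb10 lost its call without control mouse 37 (-0.36, edgeR adjusted p = 0.0592) and without the 4 mice numbered under 10 (-0.39, adjusted p = 0.0776), and Psme1 was called higher without control mouse 22 (0.35, adjusted p = 0.0266). This is 6 of 10 called and 3 higher, against 77% called and 36.2% higher among all genes. The microglial markers in the astrocyte preparation, 12.8% of their level in microglia, stand beside these differences.

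Per kb of exon, the order of levels changed with the preparation. The length used was that of all annotated exons of a gene together. It was 3381 bases for Psmb8, 3660 for Psmb9 and 899 for Psmb5, and can exceed that of the transcripts present. The order of genes within a preparation depends on these lengths. In total homogenate of controls Psmb5 was first at 55.0 ± 5.92 CPM per kb (SD, n = 8), followed by Psme3 at 34.1 ± 2.78 and Psmb6 at 27.8 ± 3.95, while Psmb8 at 1.34 ± 0.12 and Psmb9 at 0.56 ± 0.177 were last. In microglia Psme1 (40.8 ± 10.6), Psmb5 (35 ± 8.80), Psmb10 (32.5 ± 5.97), Psme2 (31.1 ± 7.90) and Psmb6 (27.8 ± 5.86 CPM per kb) did not differ from their neighbours beyond the SD. Psmb8 stood at 20.6 ± 3.48 in microglia, close to Psme3 (22.1 ± 3.95) and Psmb7 (16.4 ± 2.66), and Psmb9 was last at 7.32 ± 2.15. In astrocytes Psmb5 (41.7 ± 9.09) and Psmb6 (30.4 ± 5.27) led, and Psmb8 (4.09 ± 1.46) and Psmb9 (1.28 ± 0.46 CPM per kb) were last.

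**Figure D4:**
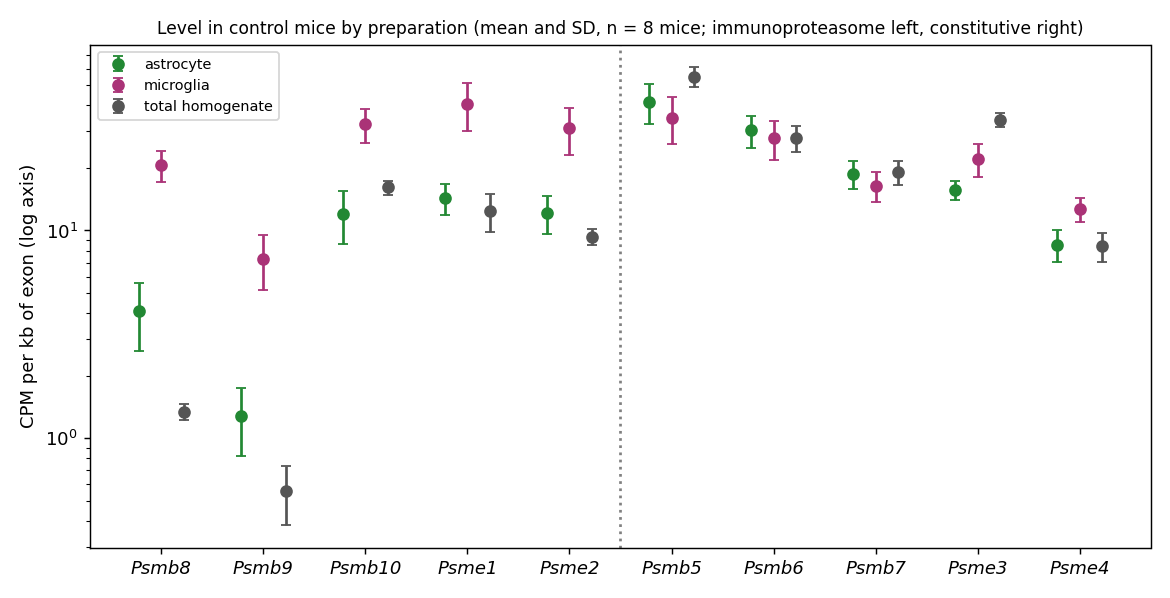
Mean level and SD in CPM per kb of exon (log axis) of each subunit in the 8 control mice, by preparation. The immunoproteasome genes (left) are highest in microglia, with Psmb8 from 1.34 in homogenate to 20.6 in microglia, whereas constitutive genes (right) lie closer together.

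Whether the response to CIE differed between preparations was tested by interaction terms in 1 model of all 51 libraries. No member passed in any of the 3 pairs of preparations (0 of 10 each by edgeR and by DESeq2), and by edgeR 1 of 10 had an unadjusted p under 0.05 between microglia and homogenate, against 11% of all genes, and 0 between the other pairs. Among all genes 0.00695% differed between astrocytes and homogenate, 0.828% between microglia and homogenate and 0.529% between microglia and astrocytes. The most different response was that of Psmb8, smaller by 0.75 (SE 0.321) on the log2 scale in microglia than in homogenate (log2 difference -0.75, unadjusted p = 0.0234, edgeR adjusted p = 0.326). Psmb9 differed by -0.65 (SE 0.368, edgeR adjusted p = 0.536) between microglia and astrocytes and by 0.04 (SE 0.443) between astrocytes and homogenate. The astrocyte call of Psmb9 is therefore not shown to be particular to astrocytes.

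The rest of the proteasome was measured with lists chosen by role. None of the 11 other subunits of the 20S core, the 19 of the 19S regulator or the 9 assembly factors and inhibitors was called in any preparation by edgeR (8 of the 9 were tested in microglia). In astrocytes 3 of 11 core subunits (Psma6, Psma4 and Psmb2), 4 of 19 regulator subunits and 1 of 9 assembly factors and inhibitors (Pomp) had an unadjusted p under 0.05, with core and regulator medians of 0.17 and 0.12 on the log2 scale, and in microglia and homogenate 0 of them did. Since 21% of all astrocyte genes had such a p, these shares are near the background or below it. Psma6, an alpha ring subunit, had medians of 53.3 CPM in control and 67.9 CPM in CIE astrocytes (log2 fold change 0.28, SE 0.108, edgeR adjusted p = 0.128). Psmc2, an ATPase of the regulator base, had 75.2 and 89.9 CPM (log2 fold change 0.20, SE 0.074, edgeR adjusted p = 0.122). Pomp, the chaperone that helps insert Psmb8 into new particles, had log2 fold changes of 0.20 (edgeR adjusted p = 0.184) in astrocytes, -0.18 (0.517) in microglia and 0.001 (0.999) in homogenate. Nfe2l1, the factor that restores constitutive subunits when proteasome activity is low, had -0.01, -0.07 and 0.01.

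Of the 8 regulators of transcription reported, 3 rose in astrocytes (Irf9, Stat2 and Nlrc5), against 2.91% of all genes called higher. In microglia Irf9, Stat2 and Nlrc5 rose and Irf8 fell, against 2.31% of all genes called higher and 3.47% in either direction. None of the 8 was called by edgeR in homogenate, where 3 had an unadjusted p under 0.05, against 9.2% of all genes. Nlrc5, the transactivator of MHC class I genes, for which Psmb9 and Tap1 are among the known targets, had medians of 6.29 and 22.3 CPM in control and CIE astrocytes (log2 fold change 1.62, SE 0.36, edgeR adjusted p = 0.0145). In microglia Nlrc5 had 17.6 and 67.6 CPM (2.24, SE 0.363, adjusted p = 0.00298 by edgeR) and in homogenate 3.02 and 7.84 CPM (1.63, SE 0.398, edgeR adjusted p = 0.0998). Irf1, which interferon gamma induces, had 0.41, 0.31 and 0.49 and was not called. Irf8, a factor of microglia and monocytes, fell by 0.43 on the log2 scale in microglia (edgeR adjusted p = 0.0144), where microglial markers were also lower. Of 7 interferon receptors and kinases Ifngr2 alone was called, lower in microglia (-0.30, edgeR adjusted p = 0.0292), where 3.47% of all genes were called.

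The neighbours of Psmb8 and Psmb9 on chromosome 17 were set beside them. Tap1, between the 2 genes, encodes a chain of the transporter that carries proteasome products into the endoplasmic reticulum. It ranged from 14.3 to 27.8 CPM in control and from 31.3 to 102 CPM in CIE astrocytes, from 38.0 to 61.4 and from 77.1 to 240 CPM in microglia, and from 4.27 to 8.02 and from 6.20 to 35.3 CPM in homogenate. The groups did not overlap in astrocytes and microglia, and the share of all genes for which this holds was not counted. Tap1 rose by 1.40 (SE 0.227), 1.35 (SE 0.203) and 1.55 (SE 0.301) on the log2 scale in the 3 preparations, with edgeR adjusted p of 0.00365, 0.00223 and 0.03. Psmb9, whose start lies 225 bases from that of Tap1, had 1.12, 0.50 and 1.09, and Psmb8 0.65, 0.33 and 1.07. Tap2, the other chain, rose in astrocytes (0.44, edgeR adjusted p = 0.0351) and had 0.26 (0.173) in microglia and 0.61 (0.285) in homogenate.

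Outside the members, 10504 genes tested in all preparations were compared with the mean log2(CPM + 0.5) of the 5 immunoproteasome genes across the 17 libraries of each preparation. The 8 genes with the highest lowest Pearson r were Bst2 (0.77), Igtp (0.76), H2-D1 (0.75), B2m (0.75), H2-T23 (0.74), Tap2 (0.74), H2-Eb1 (0.71) and Cd52 (0.71). These libraries share mice, scaling and the difference between groups, and the 8 were picked for their likeness. B2m, the light chain of MHC class I molecules, reached 0.93 in astrocytes and 0.93 in homogenate. Its log2 fold changes with CIE were 0.70, 0.32 and 0.72, close to the 0.65, 0.33 and 1.07 of Psmb8 in astrocytes and microglia.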

How the data were processed

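The authors made whole counts per gene symbol from 150-base paired-end reads (poly(A) RNA, directional libraries): bcl2fastq 2.17 wrote the reads, Cutadapt 1.8 took off adapters, the STAR aligner (2.5.0a) placed them on mm10, duplicates were dropped with Picard 1.141, and HTSeq 0.6.1p1 counted. The deposited counts are not normalized, and the annotation release and strand setting were not given in the sources used here. The 5 summary rows of each library were left out. The members and gene lists were chosen with earlier results of these data known. Named genes were all members, called list members or up to 3 of the smallest adjusted p in a list, and a fixed set (Irf1, Nlrc5, Nfe2l1, Pomp, Tap1, Tap2, Psme2b and 1 gene that is not reported here).

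Each preparation was fitted alone with edgeR 4.0.16 in R 4.3.3 (TMM, filterByExpr, quasi-likelihood test, Benjamini-Hochberg adjustment over all genes tested, threshold 0.05), and the standard error is the log2 fold change over the square root of F. edgeR in place of the authors' DESeq2 was the main test, with DESeq2 1.42.0 as an alternative. Levels of control mice and responses were compared in 1 model of 6 groups and 51 libraries. Levels are CPM on TMM scaling, ratios use log2(CPM + 0.5), and lengths and positions come from GENCODE vM21 (GRCm38). The fits were tested on simulated data. Other alternatives were RLE scaling, no filter, covariates, left-out mice and a replicate block by mouse. The 3 libraries of a mouse are paired by the animal, and deviations of the same mouse from the group means had a median correlation of 0.087 to 0.18 between preparations. Plots were drawn with Python 3.11.15 and matplotlib 3.10.9.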

Additional observations from a re-analysis of the deposited data

Results flagged for a closer look

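Of 66 sets of values (10 genes and the log2 ratio, in 6 groups), 5 held a mouse far from the others of its group, and chance alone would pick about 1 in 20 such sets. In control microglia mouse 19 had the highest Psmb8 (90.8 CPM, the next highest 66.6), Psme1 (128 CPM, next 89.9) and Psme2 (81.0 CPM, next 56.1). Its microglial library had 1210680 counts, within the range of the other controls. In control microglia mouse 03 had the highest Psme4 (127 CPM, next 101). In CIE microglia mouse 25 had the lowest log2 ratio of immunoproteasome to constitutive subunits (-0.41, the next lowest 0.14). Without mouse 19 the log2 fold changes in microglia were 0.43 for Psmb8, 0.46 for Psme1 and 0.31 for Psme2, and none of them was called. No difference in response between preparations passed its test, and no file was left out of the comparisons. Why these mice stood apart was not tested.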

How the results depend on the processing

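The 10 genes rest on 8 to 1628 counts per library, so changes of low genes such as Psmb9 in homogenate are imprecise. Counts of called members, calls of Psmb9 and the sign of log2 fold changes were compared over all alternatives. In astrocytes 2 immunoproteasome genes were called higher with DESeq2 and with the microglial marker covariate. None (0) was called with the neutrophil, border macrophage and monocyte marker covariate or with CIE mice 23, 26 and 41 left out, which were added after seeing the data, as was the microglial marker covariate in homogenate. In homogenate 1 was called with DESeq2 and 2 with the microglial marker covariate, and leaving out each mouse gave 0 to 1. The cause was not tested. The other 333 alternative values of summary results stayed within 1.5 times or 1 SD of the value reported, all log2 ratios and level and response counts among them. With mouse as a replicate block (a paired fit) no response differed either (Psmb8, microglia against homogenate, -0.62, edgeR adjusted p = 0.161), and no other call changed. Over all genes DESeq2 called 630 higher and 527 lower in astrocytes (375 and 286 by edgeR), 494 and 273 in microglia (249 and 124) and 162 and 42 in homogenate (27 and 8), and with a covariate for the 3 number ranges the calls were 589 and 540, 499 and 276, and 59 and 22. The neutrophil, border macrophage and monocyte covariate left 1 and 0 in astrocytes and 43 and 4 in microglia but gave 39 and 27 in homogenate, the microglial marker covariate gave 658 and 404 in astrocytes and 69 and 12 in homogenate, and without mice 23, 26 and 41 they were 115 and 71, 91 and 21, and 23 and 3. Without the 4 mice numbered under 10 they were 609 and 523, 514 and 213, and 6 and 1. Psmb10 between astrocytes and homogenate lost its call without the 4 mice numbered under 10 (-0.39), as did Psme4 between microglia and astrocytes (0.32). With RLE scaling Psmb7 was called lower in microglia than in homogenate (-0.32) and than in astrocytes (-0.29), and Psmb5 than in astrocytes (-0.37). Signs turned for genes near 0 that were not called. In astrocytes Psme3 had -0.00051 with DESeq2 and -0.0073 without mice 23, 26 and 41, and Psme4 0.0057 without the filter and 0.039 with the neutrophil covariate. In microglia Psme4 had 0.12 with that covariate and 0.062 without the 3 mice, and Psmb10 -0.0052 without them. In homogenate with the microglial marker covariate Psmb5 had -0.041, Psmb7 -0.032 and Psme3 -0.017, and Psmb6 0.0698 with the neutrophil covariate. Psmb6 in microglia against homogenate had 0.016 without the filter, and the response of Psmb9 in astrocytes against homogenate -0.17 without the 4 mice. Leaving out 1 mouse gave -0.0088 to 0.088 for Psmb6, -0.028 to 0.028 for Psme3 and -0.0604 to 0.035 for Psme4 in astrocytes. In microglia it gave -0.16 to 0.042 for Psmb5, -0.091 to 0.015 for Psmb7 and -0.12 to 0.027 for Psme4. In homogenate it gave -0.028 to 0.11 for Psmb5, -0.029 to 0.14 for Psmb7 and -0.024 to 0.055 for Psme3. In control levels it gave -0.073 to 0.032 for Psmb7 and -0.063 to 0.14 for Psme4 in astrocytes against homogenate, -0.11 to 0.13 for Psmb6 in microglia against homogenate, and -0.12 to 0.21 for the response of Psmb9 in astrocytes against homogenate.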
